A study of Drosophila melanogaster with 18 samples.

Results

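The 10 genes described here encode factors of nuage and of the ping-pong cycle of piRNAs: vas, spn-E, krimp, qin, tej, squ, papi, BoYb, SoYb and vret. They were taken by their FlyBase symbols, with no cut on a measured value. The list was chosen with earlier results of these data known. The members are 10 of 17768 genes in the RNA table and 10 of 17773 genes in the small RNA table. Each was found in both tables.

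Whole Drosophila melanogaster embryos aged 0 to 1.5 h were collected at 25 °C, and each assay, RNA and small RNA of 20 to 30 nt, has 3 libraries in each of 3 groups. In Piwi-MatKD_1 the maternal genotype is 37483/MAT-Gal4, in Piwi-MatKD_2 it is THU/MAT-Gal4, and in the control, GFP-MatKD, it is 41550/MAT-Gal4; the paternal genotype is w1118 in all 3 groups. The control mothers therefore carry the same MAT-Gal4 driver and a hairpin of their own, named for GFP, and no group lacks the driver. MAT-Gal4 is a driver of the maternal germline, so the knockdown concerns what mothers load into the egg, while each knockdown group rests on a single hairpin line. The growth protocol describes hairpin females mated with driver males, which differs from the maternal genotypes, so the cross is uncertain. The labels do not say whether the libraries of a group came from separate collections, and p-values measure only the spread between these libraries, which may be technical.

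Piwi-interacting RNAs guide Argonaute proteins of the Piwi family to transposon transcripts. In germ cells of the fly, Aubergine and AGO3 cut transposon and piRNA precursor transcripts in turn, each cut making the next guide, and this ping-pong cycle takes place in nuage, a perinuclear body built from RNA helicases and Tudor-domain proteins that bind methylated Piwi-family proteins. Piwi itself is loaded in the cytoplasm and acts in the nucleus. Mothers load both piRNAs and these proteins and their mRNAs into the egg, where many of them gather in the germ plasm at the posterior pole.

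RNA libraries held 61.2, 20.2 and 38.8 M reads (M for mega) in Piwi-MatKD_1, 21.6, 8.5 and 73.0 M in Piwi-MatKD_2 libraries, and 45.0, 16.5 and 32.9 M in GFP-MatKD, and small RNA libraries held 1.88 to 3.38 M counts. Piwi-MatKD_2 RNA libraries are named here by these totals, since their columns could be matched to the group alone. In the RNA table, piwi averaged 355 ± 85.7 normalised reads in Piwi-MatKD_1, 305 ± 299 in Piwi-MatKD_2 and 8748 ± 715 in GFP-MatKD (SD, n = 3 each). By limma with Benjamini-Hochberg adjustment piwi was lower in Piwi-MatKD_1 (log2 fold change -4.65, adjusted p = 0.0159) and in Piwi-MatKD_2 (-5.32, adjusted p = 0.00206), as the labels state, although the adjusted p in Piwi-MatKD_1 was 0.0583 to 0.125 when any library of Piwi-MatKD_1 or GFP-MatKD, or the Piwi-MatKD_2 library of 73.0 M reads, was left out. Ribosomal RNA took 10.9% and 5.90% of the reads in the Piwi-MatKD_2 libraries of 21.6 and 8.5 M reads, and 0.182% to 0.535% in the other 7. Maternal and pole plasm markers were present in all 9 libraries, at a summed 403342 to 430731 normalised reads in Piwi-MatKD_1, 426664 to 446175 in Piwi-MatKD_2 and 406786 to 420250 in GFP-MatKD. Most of that sum was CycB, Hsp83 and smg (means of 130802, 135083 and 98663 in GFP-MatKD), so it says little of the less abundant pole plasm RNAs. Follicle cell markers summed to 15.6 to 26.1 in Piwi-MatKD_1, 19.1 to 23.5 in Piwi-MatKD_2 and 20.0 to 30.5 in GFP-MatKD, with the eggshell gene Cp15 at 0 in all 9. The 16 early zygotic markers summed to 2469 to 4530 in Piwi-MatKD_1, 541 to 2219 in Piwi-MatKD_2 and 3282 to 5885 in GFP-MatKD, and late embryo or larva markers to 1411 in Piwi-MatKD_1 replicate 2 against 42.4 to 136 elsewhere. Early zygotic sums of Piwi-MatKD_2 lay below all of GFP-MatKD, and whether embryo age within 0 to 1.5 h differed between groups was not tested. Embryos were taken whole and pooled values are given, so fewer embryos or cells holding an RNA and less of it in each cannot be told apart.

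RNA of none of the 10 factors changed past the threshold in either knockdown. Their levels in Piwi-MatKD_1 were 0.770 to 1.04 times those in GFP-MatKD, and in Piwi-MatKD_2 0.824 to 1.12 times. By limma on log2 of the normalised reads plus 1, at an adjusted p under 0.05 over 10767 genes and repeat elements, 0 of 10 members were called in Piwi-MatKD_1, where 0.186% of all features were called, and 0 of 10 in Piwi-MatKD_2, where 3.04% were. Over the mean of both knockdown lines against GFP-MatKD 0 of 10 were called, against 0.715% of all features, and between Piwi-MatKD_2 and Piwi-MatKD_1 0 of 10, against 2.22%. At those shares, a set of 10 would hold fewer than 1 called feature, so a count of 0 does not set the members apart from other genes. At an unadjusted p under 0.05 the count was also 0 in each of the 4 comparisons, where 2.85% (Piwi-MatKD_1), 15.3% (Piwi-MatKD_2), 7.91% (mean of both lines) and 14.2% (between the lines) of all features had such a p. The recovered reads gave 0 called members by edgeR and by DESeq2. The 95% intervals, on the scale of fold change, had their outermost bounds at 0.538 and 1.61 for Piwi-MatKD_1 and at 0.510 and 1.53 for Piwi-MatKD_2. All 10 held 1 in each line.

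**Figure D1:**
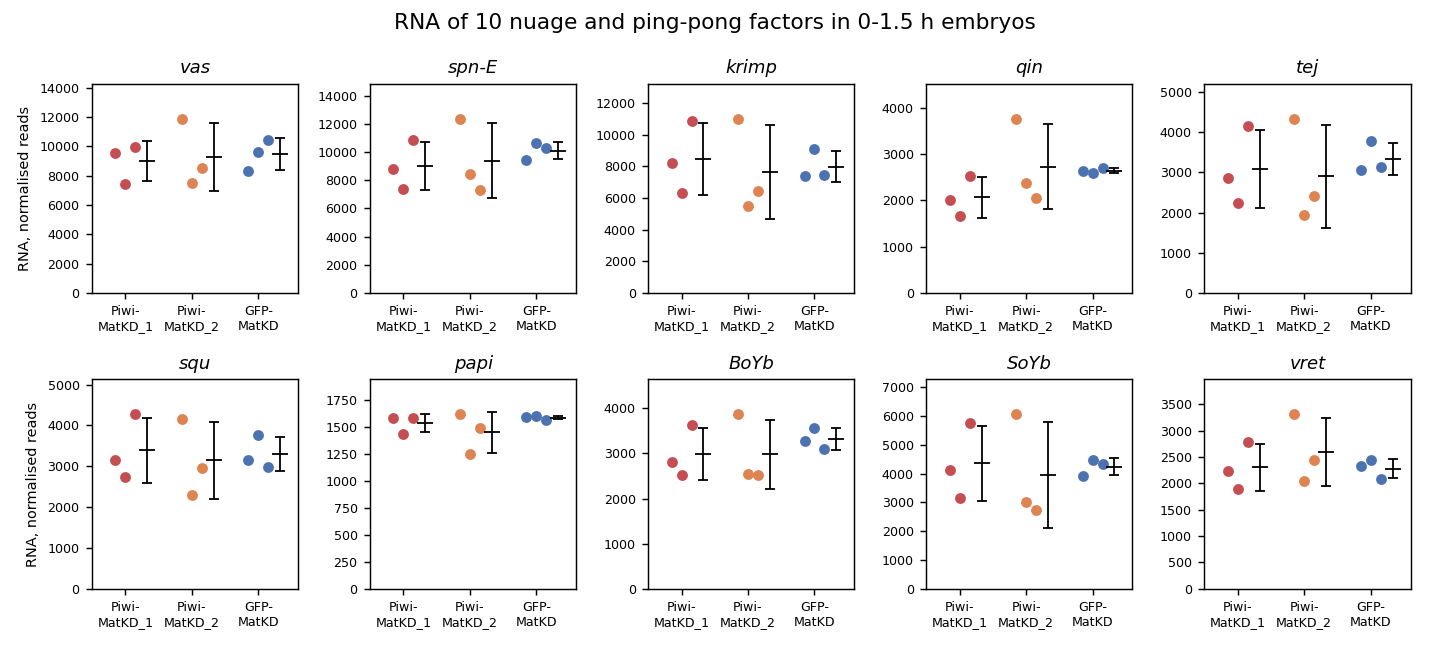
RNA of each factor in normalised reads (y axis, from 0) in the 3 libraries of Piwi-MatKD_1, Piwi-MatKD_2 and GFP-MatKD (points), with mean ± SD as black bars. The points of the groups overlap except for qin, where the 3 Piwi-MatKD_1 libraries lie at 1651 to 2515, below the GFP-MatKD libraries at 2590 to 2692.

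Vasa (vas, 2L:15061656-15074311) is a DEAD-box RNA helicase at the core of nuage that passes cut transcripts between Aubergine and AGO3, and it is also a founding component of germ plasm. Coordinates are those of the RefSeq table of Release 6 plus ISO1 MT, the release that the submitters' processing notes name BDGP6. RNA of vas stood at 9566, 7462 and 9976 normalised reads in Piwi-MatKD_1, at 11904, 7474 and 8524 in the Piwi-MatKD_2 libraries of 21.6, 8.5 and 73.0 M reads, and at 8288, 9640 and 10464 in GFP-MatKD. The control range lies inside the range of Piwi-MatKD_2 and overlaps that of Piwi-MatKD_1. Its log2 fold change was -0.08 (SE 0.19) in Piwi-MatKD_1 and -0.05 (SE 0.19) in Piwi-MatKD_2.

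Spindle-E (spn-E, 3R:15837419-15844415), a DExH-box helicase that also holds a Tudor domain and is required for ping-pong, had 8772, 7405 and 10827 normalised reads in Piwi-MatKD_1, 12381, 8450 and 7329 in Piwi-MatKD_2 libraries, and 9419, 10633 and 10254 in GFP-MatKD. The highest and the lowest of the 9 libraries were both from Piwi-MatKD_2, and the groups overlapped. For spn-E, Piwi-MatKD_1 gave a log2 fold change of -0.18 and Piwi-MatKD_2 one of -0.14 (SE 0.21 each).

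Among the Tudor-domain proteins of nuage, Krimper (krimp, on 2R) holds Aubergine and AGO3 near each other, Qin (qin, 3R:18591027-18650137) keeps ping-pong between the 2 different partners rather than between Aubergine and itself, and Tejas (tej, on 2R) brings Vasa and Spindle-E to nuage. RNA of krimp was at 8203, 6322 and 10894 normalised reads in Piwi-MatKD_1, at 11030, 5480 and 6427 in Piwi-MatKD_2 and at 7383, 9121 and 7462 in GFP-MatKD. For tej the values were 2862, 2229 and 4141 in Piwi-MatKD_1, 4340, 1949 and 2401 in Piwi-MatKD_2 libraries, and 3069, 3777 and 3128 in GFP-MatKD. In both genes the control values lay within the range of each knockdown group, which held a high and a low library each. Log2 fold changes were 0.06 (SE 0.28) in Piwi-MatKD_1 and -0.12 (SE 0.28) in Piwi-MatKD_2 for krimp. For tej they were -0.15 with Piwi-MatKD_1 and -0.28 with Piwi-MatKD_2 (SE 0.31 each).

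RNA of qin was the only one with groups that did not overlap, and that only in Piwi-MatKD_1 against GFP-MatKD. It stood at 2015, 1651 and 2515 normalised reads in Piwi-MatKD_1, at 3767, 2376 and 2042 in Piwi-MatKD_2, and at 2626, 2590 and 2692 in GFP-MatKD. The lowest value, 1651, came from Piwi-MatKD_1 replicate 2, the library with the high late embryo or larva markers. All 3 Piwi-MatKD_1 libraries were below all 3 of GFP-MatKD, as were 5.12% of the 10767 features, so 1 of 10 members is not set apart from that background. RNA of qin averaged 2061 ± 434 in Piwi-MatKD_1 and 2636 ± 52.1 in GFP-MatKD (SD, n = 3 each), a log2 fold change of -0.38 (SE 0.23, 95% interval -0.89 to 0.14) that did not pass the threshold (limma, unadjusted p = 0.135, adjusted p = 0.9997). In Piwi-MatKD_2 the mean was 2728 ± 915, and the log2 fold change from GFP-MatKD was 0.00 (SE 0.23). Between Piwi-MatKD_2 and Piwi-MatKD_1 it was 0.38 (limma, adjusted p = 0.543). Piwi-MatKD_2 libraries lay on both sides of the control values.

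**Figure D2:**
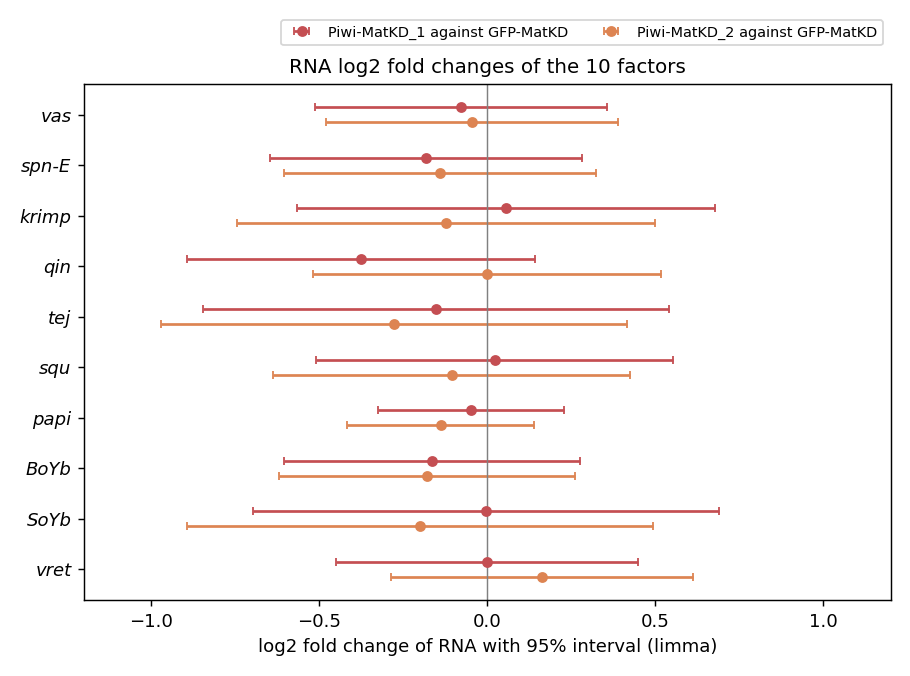
Log2 fold change of RNA (x axis) with its 95% interval from limma for each factor, for each knockdown line against GFP-MatKD, over 3 libraries a group. All 20 intervals cross 0, and the point farthest from 0 is that of qin in Piwi-MatKD_1, at -0.38.

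Squash (squ, 2L:16680054-16681653) is a nuage protein that binds Aubergine. Its RNA ranged over 2747 to 4274 normalised reads in Piwi-MatKD_1, 2292 to 4166 in Piwi-MatKD_2 and 2980 to 3771 in GFP-MatKD. Both knockdown ranges enclose that of the control, and the log2 fold change was 0.02 for Piwi-MatKD_1 and -0.11 for Piwi-MatKD_2 (SE 0.24 each). The whole of squ lies within the span of grp, a checkpoint kinase gene at 16225 normalised reads in Piwi-MatKD_1, 16711 in Piwi-MatKD_2 and 16704 in GFP-MatKD on average, and reads of overlapping genes are uncertain.

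A further 4 members act mainly in loading and in shaping piRNA ends. Papi (papi, 2L:2220748-2225544) is a Tudor and KH-domain protein on the outer face of mitochondria that takes part in trimming. It gave 1586, 1437 and 1579 normalised reads in Piwi-MatKD_1, 1616, 1243 and 1484 in Piwi-MatKD_2 libraries, and 1592, 1597 and 1567 in GFP-MatKD. These were the most even values of the set: the highest library was 1.30 times the lowest, and the log2 fold changes were -0.05 in Piwi-MatKD_1 and -0.14 in Piwi-MatKD_2 (SE 0.12 each). For papi the 95% interval of the fold change was 0.798 to 1.17 in Piwi-MatKD_1 and 0.749 to 1.10 in Piwi-MatKD_2, the narrowest of the 10.

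Brother of Yb and Sister of Yb (BoYb, 3L:22901912-22905470, and SoYb, 2L:9996706-10002736) are Tudor-domain relatives of Yb with a helicase-like part, and Vreteno (vret, 3R:22742954-22745581) is a Tudor-domain protein needed for loading Piwi. SoYb had 4134, 3158 and 5753 normalised reads in Piwi-MatKD_1, 6060, 3005 and 2745 in Piwi-MatKD_2 libraries, and 3905, 4487 and 4320 in GFP-MatKD. The control libraries were close together, and both knockdown groups spread to either side of them. Its log2 fold changes were 0.00 in Piwi-MatKD_1 and -0.20 in Piwi-MatKD_2 (SE 0.31 each).

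BoYb ranged over 2524 to 3625 normalised reads in Piwi-MatKD_1, 2526 to 3871 in Piwi-MatKD_2 and 3091 to 3570 in GFP-MatKD, and vret over 1895 to 2780 in Piwi-MatKD_1, 2040 to 3312 in Piwi-MatKD_2 and 2073 to 2437 in GFP-MatKD. All of these ranges overlap. The log2 fold change of BoYb was -0.17 for Piwi-MatKD_1 and -0.18 for Piwi-MatKD_2 (SE 0.19 each), while that of vret was 0.00 for Piwi-MatKD_1 and 0.16 for Piwi-MatKD_2 (SE 0.20 each). In Piwi-MatKD_2, vret was the only one of the 10 with an estimate above 0.

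As a set, the members had a median log2 fold change of -0.06 in Piwi-MatKD_1, where the median of all features was 0.01. There 3 members were above 0 and 7 below, and 51.5% of all features were above 0. In Piwi-MatKD_2 the median of the members was -0.13 and that of all features -0.04. Here 1 member was above 0 and 9 below, and 44.3% of all features were above 0. The members rose and fell together between libraries, so these signs are not 10 separate observations. Between Piwi-MatKD_2 and Piwi-MatKD_1 both medians were -0.05. The comparisons with GFP-MatKD share its 3 libraries.

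The spread of the members' RNA between libraries was mostly above the median of well-read features. The share of those features with a spread as large was not computed. Over the 9 libraries the coefficient of variation was 7.88% for papi and 15.8% to 27.7% for the other 9, highest for SoYb, against a median of 14.9% over the 4774 features with a mean of at least 1000 normalised reads. Within groups, the SD on the log2 scale ran from 0.12 for papi to 0.44 for SoYb and tej, against a median of 0.21 over those features. Each member was counted from 326 to 22032 reads in a library.

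In 5 of the 9 libraries all 10 factors deviated from their own mean in the same direction. All 10 were above their own mean in Piwi-MatKD_1 replicate 3, the 21.6 M library of Piwi-MatKD_2 and GFP-MatKD replicate 2, by 0.28, 0.43 and 0.16 on average on the log2 scale. All 10 were below it in Piwi-MatKD_1 replicate 2, by a mean deviation of -0.32, and in the 8.5 M library of Piwi-MatKD_2, by -0.33. In Piwi-MatKD_1 replicate 2 the late embryo or larva markers summed to 1411 normalised reads, and their part in the members' values was not tested. The Piwi-MatKD_2 library of 73.0 M reads was also low, at -0.22, with vret alone above its mean. Other pathway genes leaned the same way in part: 24 of 34 were above their own mean in Piwi-MatKD_1 replicate 3, 24 in the 21.6 M library of Piwi-MatKD_2 and 23 in GFP-MatKD replicate 2, against 11 in Piwi-MatKD_1 replicate 2 and 10 in the 8.5 M library of Piwi-MatKD_2. Of the 4774 well-read features, 46.5% to 55.5% were above their own mean in those 5 libraries.

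The Piwi-MatKD_2 library of 21.6 M reads was the highest of the 9 for 9 of the 10 members, all but squ. It was also the highest for 14 of 34 other genes of the pathway and for 30.4% of the 4774 features with a mean of at least 1000, and the lowest for 4 of 34 and for 33.3%. That library has the largest share of ribosomal RNA, 10.9%, and the lowest sum of early zygotic markers, 541 normalised reads, and their part in the members' values was not tested. Without it, all 10 members were below GFP-MatKD in Piwi-MatKD_2, with a median log2 fold change of -0.34 and a range of -0.61 to -0.03, where the median of all features was -0.07. None of the members passed the threshold (limma, lowest adjusted p = 0.188), while 399 of 10767 features did. Leaving out the library in which 9 of the 10 are highest lowers their values by construction, so the direction is no result of its own. With both libraries of over 1% ribosomal RNA left out, so that 1 library stood for the group, the median was -0.34 and the lowest adjusted p 0.383 (limma, the lone library being assumed to vary like the other groups).

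**Figure D3:**
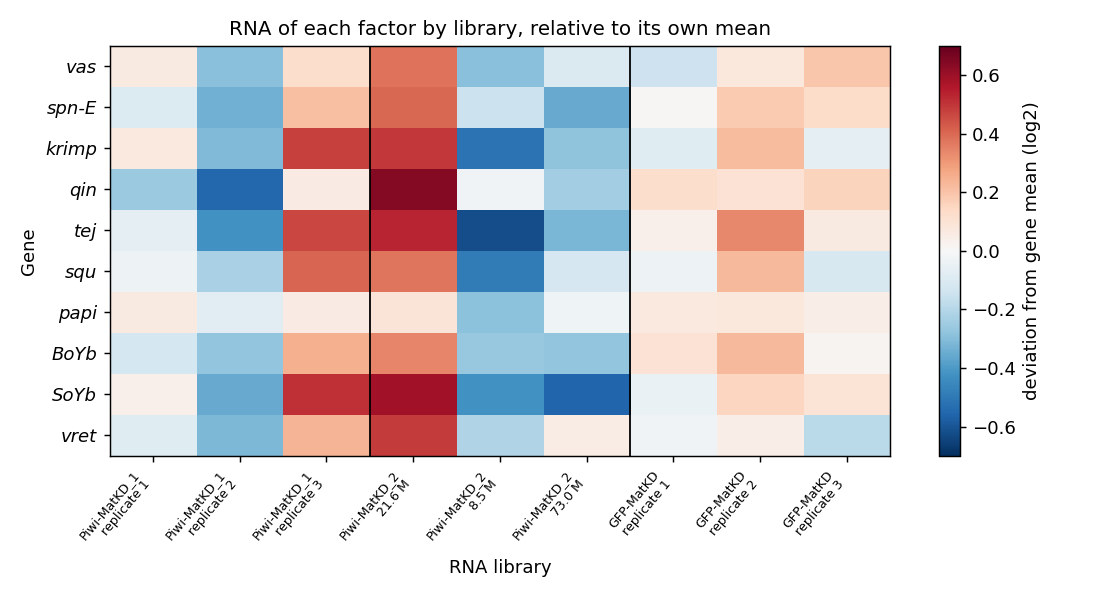
RNA of each factor (rows) in each library (columns) as the deviation of log2 normalised reads from the gene's own mean over 9 libraries (colour scale, log2 units), with vertical lines between Piwi-MatKD_1, Piwi-MatKD_2 and GFP-MatKD. Columns are mostly of 1 colour: Piwi-MatKD_1 replicate 3 and the 21.6 M library of Piwi-MatKD_2 are high for all 10, and Piwi-MatKD_1 replicate 2 and the 8.5 M library of Piwi-MatKD_2 are low for all 10.

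Genes of the other steps of the pathway did not pass the threshold in RNA either. Of 34 tested (11 other nuage and ping-pong genes, 9 of phased biogenesis and 14 of the nucleus), 0 were called in each of the 4 RNA comparisons by limma, with 1 or 2 at an unadjusted p under 0.05. Of all features, 0.186% to 3.04% were called in those comparisons and 2.85% to 15.3% had such an unadjusted p. The nearest to the threshold was shu, which encodes a co-chaperone for loading Piwi-family proteins and is named here after its values were seen. It averaged 1501 ± 200 normalised reads in Piwi-MatKD_1, 1911 ± 275 in Piwi-MatKD_2 and 1223 ± 73.5 in GFP-MatKD (SD, n = 3 each), with a log2 fold change of 0.63 in Piwi-MatKD_2 (limma, adjusted p = 0.0574).

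In small RNA, levels at qin were 1.37 times those of GFP-MatKD in Piwi-MatKD_1 and 1.67 times in Piwi-MatKD_2, those at vas were 0.788 times in Piwi-MatKD_1 and 0.654 times in Piwi-MatKD_2, and neither gene passed the threshold. The 10 genes together took 258 to 282 CPM (counts scaled to the size of the library) in Piwi-MatKD_1, 216 to 252 in Piwi-MatKD_2 and 195 to 245 in GFP-MatKD, and qin and vas gave 95.7% to 99.0% of those counts. By edgeR's quasi-likelihood test over 2169 genes, only these 2 had enough counts to be tested. In Piwi-MatKD_1 0 of 2 were called, where 7.51% of all genes tested were, and in Piwi-MatKD_2 0 of 2, where 12.5% were. For the mean of both lines against GFP-MatKD 0 of 2 were called, against 11.2% of all, and between Piwi-MatKD_2 and Piwi-MatKD_1 0 of 2, against 5.39%. Before adjustment, p was under 0.05 for 0 of them in Piwi-MatKD_1 (25.2% of all genes tested), for both in Piwi-MatKD_2 (26.2%), for both when the lines were averaged (24.0%) and for 0 between the lines (25.8%). DESeq2 called 1, qin in Piwi-MatKD_2.

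Small RNA at qin was at 215, 146 and 160 CPM after scaling by TMM in Piwi-MatKD_1, at 247, 218 and 172 in Piwi-MatKD_2, and at 116, 151 and 112 in GFP-MatKD. The 3 Piwi-MatKD_2 libraries were all above GFP-MatKD, as they were for 15.2% of all genes tested, while Piwi-MatKD_1 replicate 2 fell inside the control range. Group means were 174 ± 36.4 in Piwi-MatKD_1, 212 ± 37.6 in Piwi-MatKD_2 and 127 ± 21.3 in GFP-MatKD (SD, n = 3 each). The log2 fold change of qin was 0.46 (SE 0.22) in Piwi-MatKD_1 (edgeR, adjusted p = 0.220) and 0.74 (SE 0.22) in Piwi-MatKD_2 (edgeR, adjusted p = 0.0507).

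Whether qin was called in small RNA depended on the settings. In Piwi-MatKD_2 it was also called with counts rounded down (edgeR, adjusted p = 0.0404) and with only the libraries compared (edgeR, adjusted p = 0.0320), and not with RLE factors in place of TMM (edgeR, adjusted p = 0.0556). Scaled by library totals alone, qin was at 200, 190 and 188 CPM in Piwi-MatKD_1, at 185, 195 and 166 in Piwi-MatKD_2 and at 124, 148 and 118 in GFP-MatKD. In that fit the log2 fold change was 0.57 in Piwi-MatKD_1 (edgeR, adjusted p = 0.0148) and 0.48 in Piwi-MatKD_2 (edgeR, adjusted p = 0.0215). TMM factors ran from 0.749 in Piwi-MatKD_2 replicate 1 to 1.30 in Piwi-MatKD_1 replicate 2. Over the 17 alternatives the adjusted p of qin in Piwi-MatKD_2 ranged from 0.0215 to 0.475, and the direction was the same in all of them.

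The qin gene spans 59111 bp and holds other genes within it, so a count at qin is uncertain where they overlap. CG14304, a gene of 28527 bp inside that span, had more small RNA than qin, with 980 ± 160 CPM in Piwi-MatKD_1, 1179 ± 155 in Piwi-MatKD_2 and 1068 ± 26.5 in GFP-MatKD (SD, n = 3 each), and a log2 fold change of -0.12 for Piwi-MatKD_1 (edgeR, adjusted p = 0.665) and 0.14 for Piwi-MatKD_2 (edgeR, adjusted p = 0.693). Set against the CG14304 counts of the same library, which removes the scaling between libraries, small RNA at qin was 19.2%, 18.2% and 15.8% of CG14304 in Piwi-MatKD_1, 18.2%, 20.4% and 15.5% in Piwi-MatKD_2 libraries, and 10.9%, 14.5% and 10.3% in GFP-MatKD. All 6 knockdown libraries were above the 3 control libraries, and the share of other genes that separate so against CG14304 was not computed. This ratio was chosen after the values were seen and is given with no test.

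At vas, small RNA was at 63.8, 62.3 and 53.2 CPM in Piwi-MatKD_1, at 38.4, 60.5 and 49.5 in Piwi-MatKD_2, and at 60.2, 96.2 and 71.2 in GFP-MatKD. The Piwi-MatKD_1 library at 53.2 and the Piwi-MatKD_2 libraries at 38.4 and 49.5 were below all of GFP-MatKD. The remaining knockdown libraries lay inside the control range, above GFP-MatKD replicate 1. For vas the log2 fold change was -0.34 (SE 0.26) with Piwi-MatKD_1 (edgeR, adjusted p = 0.408) and -0.61 (SE 0.26) with Piwi-MatKD_2 (edgeR, adjusted p = 0.160). Scaled by library totals alone, it was -0.21 with Piwi-MatKD_1 (edgeR, adjusted p = 0.609) and -0.84 with Piwi-MatKD_2 (edgeR, adjusted p = 0.0552). The span of vas holds vig and solo, whose small RNA counts summed over 3 libraries were 35.3 and 25.6 in Piwi-MatKD_1, 41.0 and 30.0 in Piwi-MatKD_2 libraries, and 65.3 and 29.7 in GFP-MatKD.

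**Figure D4:**
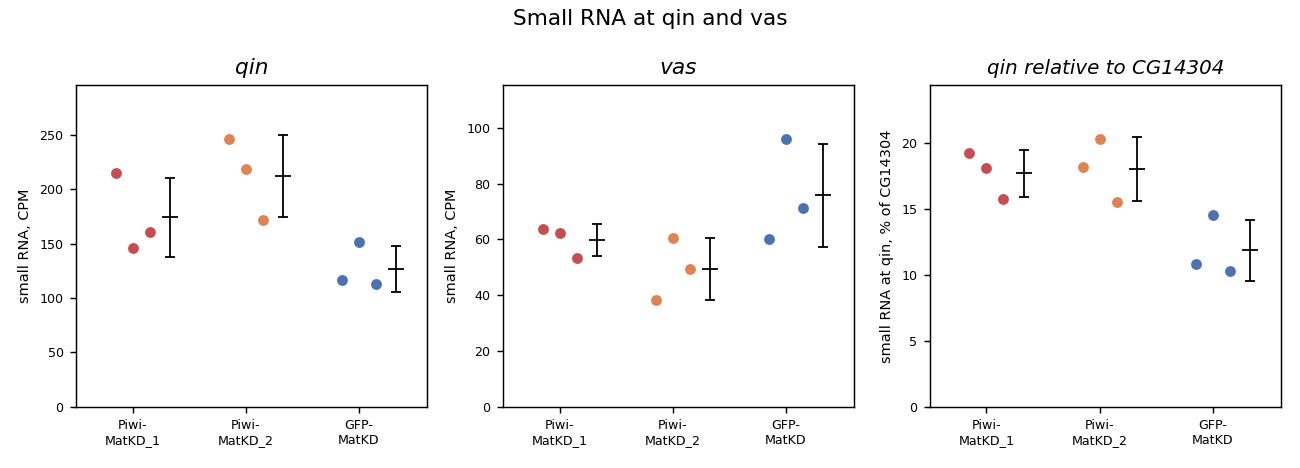
Small RNA at qin (left) and vas (middle) in CPM, and at qin as a percentage of the counts at CG14304 in the same library (right), each y axis from 0, for the 3 libraries of Piwi-MatKD_1, Piwi-MatKD_2 and GFP-MatKD (points) with mean ± SD (bars). At qin the Piwi-MatKD_2 points lie at 172 to 247, above the GFP-MatKD points at 112 to 151, as they do for 15.2% of all genes tested. As a percentage of CG14304, a ratio chosen after the values were seen, both knockdown groups lie above the control. The share of other genes that separate so was not computed, and counts of these overlapping genes are uncertain.

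The other 8 members had next to no small RNA. Counts of tej were 0 in all 9 libraries, and krimp was at 0 in 6 of 9 and at 3 or fewer in the rest. A count of 0 allows up to 3 counts, which is 1.31 CPM in the smallest library of Piwi-MatKD_1, 1.60 in that of Piwi-MatKD_2 and 1.05 in that of GFP-MatKD, covering counting error only. SoYb reached 5, 12.9 and 7.5 counts in Piwi-MatKD_1, 0, 5.83 and 13.5 in Piwi-MatKD_2 libraries, and 5, 0 and 2.5 in GFP-MatKD. It lies entirely within CG31875, whose small RNA counts over 3 libraries were 27.4 in Piwi-MatKD_1, 19.3 in Piwi-MatKD_2 and 7.5 in GFP-MatKD, close to those of SoYb itself at 25.4 in Piwi-MatKD_1, 19.3 in Piwi-MatKD_2 and 7.5 in GFP-MatKD. For spn-E the counts were 13, 2.5 and 5 in Piwi-MatKD_1, 0, 0 and 2.11 in Piwi-MatKD_2 libraries, and 3.03, 3 and 4 in GFP-MatKD. BoYb, squ, papi and vret stayed at 10 counts or fewer in each library, and differences among these genes were not detectable at this depth.

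Small RNA at piwi averaged 345 ± 178 CPM in Piwi-MatKD_1, 1164 ± 86.1 in Piwi-MatKD_2 and 9.26 ± 2.83 in GFP-MatKD (SD, n = 3 each), with a log2 fold change of 5.21 for Piwi-MatKD_1 (edgeR, adjusted p = 0.000108) and 6.96 for Piwi-MatKD_2 (edgeR, adjusted p = 9.15e-06). Among the 11 other pathway genes tested in small RNA, the count past the threshold was 0 (Piwi-MatKD_1), 1 (Piwi-MatKD_2), 1 (both lines averaged) and 2 (between the lines), all lower. Of all genes tested, 7.51%, 12.5%, 11.2% and 5.39% were called in the same order. The gene nxf2, which encodes a partner of Panoramix in silencing by Piwi, was at 1412 ± 577 CPM in Piwi-MatKD_1, 520 ± 108 in Piwi-MatKD_2 and 1154 ± 186 in GFP-MatKD (SD, n = 3 each). The log2 fold change of nxf2 was -1.15 in Piwi-MatKD_2 against GFP-MatKD (edgeR, adjusted p = 0.0203) and -1.44 in Piwi-MatKD_2 against Piwi-MatKD_1 (edgeR, adjusted p = 0.0153). Without GFP-MatKD replicate 2, or Piwi-MatKD_2 replicate 2 or 3, the adjusted p of the comparison with GFP-MatKD was 0.0552 to 0.0998.

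The gene mael, which encodes Maelstrom, a protein of nuage and nucleus, had small RNA at 156 ± 39.2 CPM in Piwi-MatKD_1, 179 ± 12.9 in Piwi-MatKD_2 and 263 ± 30.6 in GFP-MatKD (SD, n = 3 each), and was called only for the mean of both lines, at a log2 fold change of -0.66 (edgeR, adjusted p = 0.0370). That call was lost in 8 of 16 alternatives, at adjusted p of 0.0622 to 0.161, among them leaving out any library of GFP-MatKD or Piwi-MatKD_2. Small RNA at mino, the gene of a mitochondrial acyltransferase needed for phased piRNA production, was lower between the lines, at 5.88 ± 2.70 CPM in Piwi-MatKD_2 against 24.9 ± 3.78 in Piwi-MatKD_1, with 13.6 ± 2.13 in GFP-MatKD (SD, n = 3 each; log2 fold change -2.02; edgeR, adjusted p = 0.00886). RNA of nxf2, mael and mino did not pass the threshold in any comparison.

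For each member, the RNA feature most like it over the 9 libraries was not itself a member. With 10767 features compared and few of them members, that outcome was likely beforehand. It does not say whether the members vary together. Each r of a closest feature is the highest over all those features and only 9 libraries, so the choice itself favours high values. The closest were pasi1 for vret (Pearson r = 0.997), kra for tej (r = 0.996), CG1951 for spn-E (r = 0.995), cass for BoYb (r = 0.993) and Rad17 for squ (r = 0.992). For the rest they were Lime for SoYb (r = 0.991), Ir54a for krimp (r = 0.990), the repeat element G7_DM for vas (r = 0.989), lncRNA:CR43785 for papi (r = 0.982) and Npc1a for qin (r = 0.981). Among members the closest pair was krimp and squ (r = 0.974). The 45 pairs of members had r of 0.388 to 0.974, with a median of 0.810, and no such median was computed for other genes. These values describe likeness over 9 libraries that share depth and ribosomal RNA content with every gene, and are given with no p.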

How the data were processed

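Values in the authors' deposited RNA table are a normalised signal. Of those above 0 in a library, 99.99% to 100% were whole multiples (tolerance 0.001) of the smallest, as reads scaled by a single size factor give. The small RNA table deposited by the authors holds expected counts per gene, not normalised and partly fractional, which were rounded here. BDGP6, Bowtie 1.2.2, cutadapt and featureCounts appear, with no role or order, per the submitters' processing notes; counting by strand and treatment of reads with several matches are not given in the sources used here. Per the labels' protocols RNA was extracted with TRIzol, with small RNA cut from a 15% gel; the RNA kit named is for stranded mRNA while the series speaks of total RNA-seq. Columns were matched to samples by the labels, the Piwi-MatKD_2 RNA columns to their group alone.

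RNA was tested with limma 3.58.1 on log2(value + 1), for features of at least 1 in 3 libraries; a fold change on that scale understates the change of low genes. Small RNA was tested with edgeR 4.0.16 (TMM, filterByExpr), in R 4.3.3. All 9 libraries entered each fit, with group as the only term, and p-values were adjusted over all features tested. DESeq2 1.42.0, edgeR on recovered reads, other scalings, filters and pseudocounts, and leaving out each library were the alternatives. The fits were also run on simulated counts with a fixed spread and with changes larger than the members' estimates. That run does not show whether changes as small as theirs would be found. Intervals cover the spread between libraries.

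The text names all 10 members, piwi, other pathway genes past the threshold and, for members, the most similar RNA feature; shu, and the genes that overlap members, were named after their values were seen. A part of the rule that ranks genes by level per coding length was not applied, as coding lengths were not used here; levels are therefore not compared between genes. The members and lists were chosen with earlier results of these data known. Tdrd5p of the pathway list was not matched.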

Additional observations from a re-analysis of the deposited data

How the results depend on the processing

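In RNA the count of members called was 0 in each of the 4 comparisons under 19 to 21 alternatives each, leaving out single libraries included (0 to 0). Of 800 alternative values of members none was called and 72 changed sign without a call; the lowest adjusted p was 0.0613, for BoYb in Piwi-MatKD_2 with array quality weights. Scaling by library totals moved the median of all RNA features in Piwi-MatKD_2 to -0.19 on the log2 scale, against -0.04. Over the alternatives, all RNA features called numbered 3 to 63 for Piwi-MatKD_1 (20 in the report), 108 to 1826 for Piwi-MatKD_2 (327), 15 to 403 for the mean of both lines (77) and 61 to 670 between the lines (239). All small RNA genes called numbered 47 to 290 (163), 110 to 408 (272), 112 to 400 (243) and 42 to 207 (117) in the same order. In small RNA the count of members called went to 1, in each case qin, higher, in Piwi-MatKD_1 under library totals; in Piwi-MatKD_2 under library totals, DESeq2 (adjusted p = 0.0471), counts rounded down (0.0404) and only the libraries of the groups compared (0.0320); and for the mean of both lines under library totals (0.00813) and counts rounded down (0.0365). The cause was not tested. Library totals moved the median of all small RNA genes to 0.25 (from TMM's 0.13) for Piwi-MatKD_1 and to -0.27 (TMM -0.04) for Piwi-MatKD_2. Leaving out single libraries gave 0 to 0 in all 4 small RNA comparisons. In RNA, same-numbered deviations correlated at -0.30 to -0.13 between Piwi-MatKD_1 and GFP-MatKD, the only groups whose RNA columns were matched to replicates. In small RNA they correlated at 0.36 to 0.51 for replicate 3 and at -0.17 to 0.44 for replicates 1 and 2. Whether replicate numbers mark shared handling of the libraries was not tested in either assay. With the replicate block, 0 members were called in RNA (Piwi-MatKD_1), and in small RNA 1 in Piwi-MatKD_2, qin (adjusted p = 0.0460), and 0 elsewhere. At this depth 8 members had too few small RNA counts to be tested.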
